A study of Mus musculus with 6 samples.

Results

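The 44 genes described here mostly encode enzymes that add methyl groups to histone lysines or remove them, and the CHD family of chromatin remodellers. They were chosen by name as every gene of the deposited table whose symbol begins with Kdm, Kmt, Setd or Chd and a digit, with Setdb, or is Ehmt1, Ehmt2, Suv39h1, Suv39h2, Ezh1 or Ezh2. The table lists 23361 genes in all. No symbol beginning with Kmt and a digit is in it: 5 genes of the MLL family stand under the older symbols Mll1, Mll2, Mll3, Mll5 and Wbp7 and were not chosen by this rule. RNA of whole testes came from 6 male mice of the strain C57BL/6J, all about 120 days old and all homozygous for V805A in Ret, the receptor tyrosine kinase that relays the signal of the growth factor GDNF. A kinase with this substitution can be blocked by the small molecule 1NaPP1-HCl. For 9 days, 3 control mice were injected daily with vehicle (saline, cremophor and ethanol, 10 microliters per gram of body weight), and 3 others, called inhibitor mice here, with the same vehicle containing 1NaPP1-HCl. Injections then stopped for 5 days, and testes were taken on day 14 of the experiment. No mice with unaltered Ret are among the samples, so blocking of Ret and any other action of the compound cannot be told apart. A whole testis is a mixture of germ cells and somatic cells, and in such a sample fewer cells of a type and less RNA per cell cannot be told apart.

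Methylation of histone lysines marks chromatin states. Trimethylated lysine 4 of histone H3 (H3K4) is found at active promoters, methylated H3K9 in heterochromatin, H3K27 at genes silenced by Polycomb, and H3K36 over transcribed gene bodies. Most writers carry a SET domain. Erasers are either flavin-dependent amine oxidases (Kdm1a and Kdm1b) or JmjC-domain dioxygenases. CHD proteins use ATP to move or evict nucleosomes. Male germ cells rewrite these marks from spermatogonia through meiosis to spermatids, in which most histones are finally replaced by protamines.

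Fragments assigned to genes came to between 23144295 and 43127892 per library. CPM is the scale of fragments over library size, after TMM scaling. Before that scaling 1 CPM rested on between 23.1 and 43.1 fragments. All 44 genes passed the filter on low counts and were tested with 16658 genes in all. Inhibitor mouse 3 stood apart from its group. Its counts differed from those of inhibitor mice 1 and 2 by chi-square values of 11.5 and 12.5 per degree of freedom, against 4.76 between those mice and between 4.09 and 5.83 among the controls. Genes called only without this mouse are named below, and for several of them values without it are given. The labels name each library as a separate mouse. In the lists of values below, mice are in the order 1, 2, 3.

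RNA levels of the 44 genes spanned more than 2 orders of magnitude. On the scale of FPKM, which divides by transcript length and allows genes to be compared, 10 genes had a mean above 30 over the 6 mice, 18 lay between 5 and 30, and 16 lay below 5. Ehmt2, which encodes the H3K9 methyltransferase G9a, was the most abundant at 102 ± 6.34 FPKM (SD, n = 6 mice). It was followed by the H3K4 demethylase gene Kdm5b at 67.5 ± 3.78 FPKM, Kdm1a (LSD1) at 59.5 ± 1.32 FPKM, and by Chd5 at 56.2 ± 4.27 FPKM and Chd4 at 52.9 ± 3.76 FPKM. Next came Setd3 at 50.5 ± 0.966 FPKM and Kdm3a at 49.998 ± 0.736 FPKM. From Kdm1a down to Kdm3a, each gene differed from its neighbour in this order by less than the larger SD of the pair. Kdm3a encodes an H3K9 demethylase known to be needed for the expression of protamine genes, and Setd3 an enzyme that methylates a histidine of actin. Kdm4d (45.2 FPKM), a short H3K9 demethylase of the testis, Chd1l (44.9) and Ezh2 (33.0) completed the 10. The lowest levels were those of the Y-linked Kdm5d at 0.587 ± 0.110 FPKM and of Setd7 at 0.761 ± 0.0797 FPKM.

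**Figure D1:**
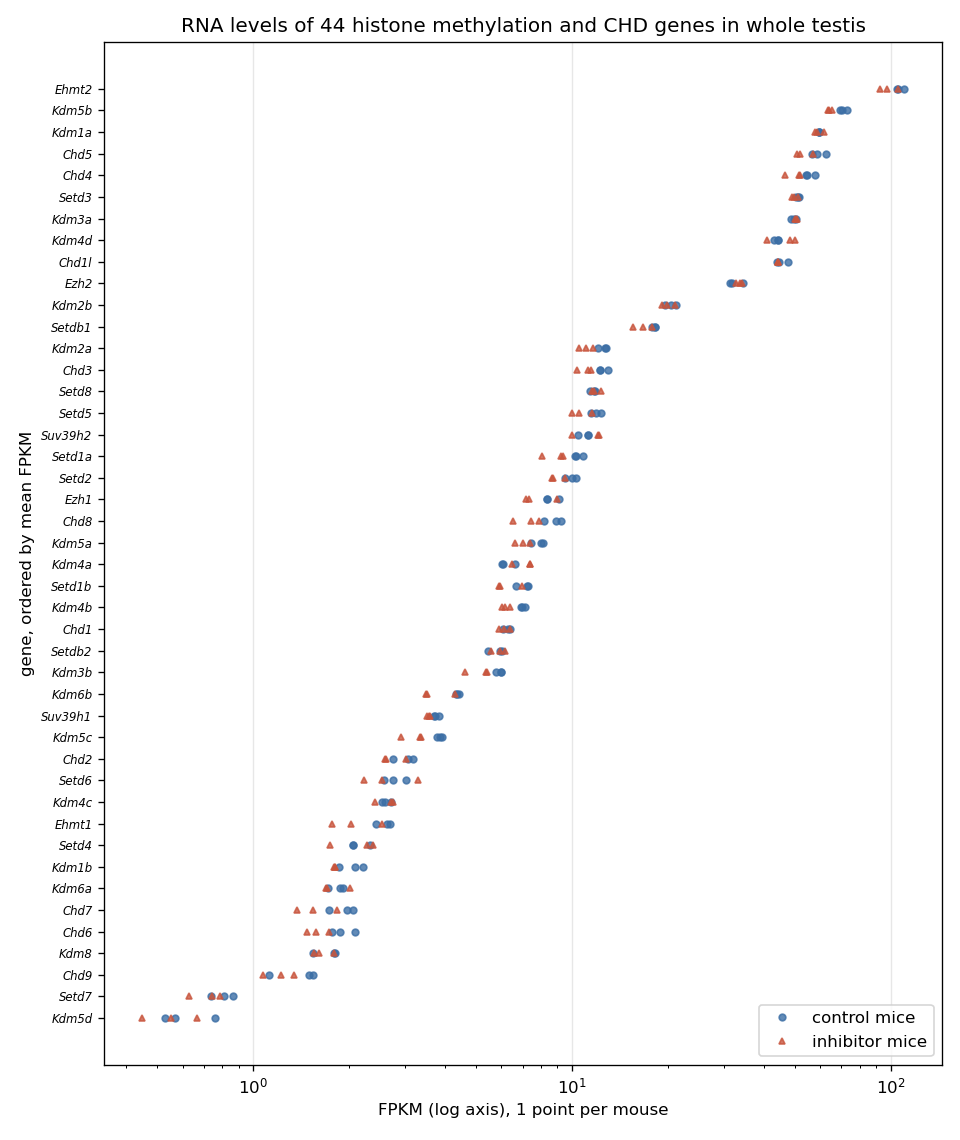
FPKM (log axis) of the 44 genes in each of the 6 mice, ordered by mean; circles are control mice and triangles inhibitor mice. Levels run from 0.587 FPKM (Kdm5d) to 102 FPKM (Ehmt2), and within a gene the 6 mice lie close together compared with the distance between genes.

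Related enzymes were present in unequal amounts. Ehmt2 and Ehmt1 encode G9a and GLP, which work as a heterodimer, yet the FPKM of Ehmt2 was between 39.9 and 55.3 times that of Ehmt1 in every mouse. Ezh2, the main H3K27 methyltransferase of Polycomb repressive complex 2 in dividing cells, exceeded its relative Ezh1 by 3.74 to 4.68 times. Suv39h2, the testis-rich form of the heterochromatin H3K9 methyltransferase, exceeded the X-linked Suv39h1 by 2.81 to 3.46 times. Setdb2 stood at 0.300 to 0.370 times the level of Setdb1, and Y-linked Kdm5d at 0.135 to 0.200 times that of X-linked Kdm5c. Chd5 and Chd4, alternative motor subunits of the NuRD complex, were near equality, with a ratio of 0.999 to 1.10. None of these ratios had a separate test between the groups. The ratio of Ezh2 to Ezh1 was 3.78 ± 0.0319 in the controls against 4.32 ± 0.439 after the inhibitor (SD, 3 mice per group), and that of Ehmt2 to Ehmt1 was 41.4 ± 1.79 and 47.4 ± 7.12. In inhibitor mouse 3 Ezh1 (8.94 FPKM) and Ehmt1 (2.54 FPKM) lay within the range of the controls. The ratio of Suv39h2 to Suv39h1 was 2.92 ± 0.110 and 3.21 ± 0.341, and that of Setdb2 to Setdb1 0.322 ± 0.0187 and 0.354 ± 0.0184. Kdm5d to Kdm5c gave 0.161 ± 0.0328 and 0.173 ± 0.0240, and Chd5 to Chd4 1.06 ± 0.0253 and 1.06 ± 0.0557.

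Promoter sequences are shown for Ehmt1 and Ehmt2, whose levels are the most unequal of these pairs, and for Kdm4a and Kdm4d, the genes with the highest fold changes of the 44. Each is the window of 250 bases before the most upstream start listed by RefSeq (GRCm38.p6), read 5′ to 3′ on the strand of the gene. Capitals mark matches, on either strand, to 4 motifs: the CCAAT box (CCAAT), the GC box (GGGCGG), the NRF1 motif (GCGC repeated with 2 free bases between) and the cyclic AMP response element (TGACGTCA).
Ehmt1, chr2:24919610-24919859, minus strand: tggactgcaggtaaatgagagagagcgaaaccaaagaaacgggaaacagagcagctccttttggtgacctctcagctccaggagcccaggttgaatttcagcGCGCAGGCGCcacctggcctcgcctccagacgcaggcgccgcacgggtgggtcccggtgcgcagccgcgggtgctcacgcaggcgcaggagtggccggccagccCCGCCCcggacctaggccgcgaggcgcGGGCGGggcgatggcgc
Ehmt2, chr17:34898224-34898473, plus strand: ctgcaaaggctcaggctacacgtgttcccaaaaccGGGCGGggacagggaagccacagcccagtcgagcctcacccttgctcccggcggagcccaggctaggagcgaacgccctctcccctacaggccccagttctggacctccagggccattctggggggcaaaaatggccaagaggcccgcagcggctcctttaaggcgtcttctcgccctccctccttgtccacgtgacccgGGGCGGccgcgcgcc
Kdm4a, chr4:118180044-118180293, minus strand: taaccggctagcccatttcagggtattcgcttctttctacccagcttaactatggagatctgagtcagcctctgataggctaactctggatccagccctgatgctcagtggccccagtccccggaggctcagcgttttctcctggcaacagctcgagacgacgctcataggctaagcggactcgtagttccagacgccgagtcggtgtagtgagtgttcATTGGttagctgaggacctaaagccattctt
Kdm4d, chr9:14500483-14500732, minus strand: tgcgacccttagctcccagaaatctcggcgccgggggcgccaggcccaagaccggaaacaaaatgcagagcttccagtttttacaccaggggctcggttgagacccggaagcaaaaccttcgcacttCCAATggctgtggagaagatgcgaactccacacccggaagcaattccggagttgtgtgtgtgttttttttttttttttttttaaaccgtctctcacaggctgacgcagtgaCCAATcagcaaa
The Ehmt1 window held 26 CG dinucleotides, 2 GC boxes and 1 NRF1 match, and that of Ehmt2 18 CG dinucleotides and 2 GC boxes. Kdm4a and Kdm4d had 12 and 14 CG dinucleotides, and their matches were CCAAT boxes alone (1 and 2). Windows were found for 34 of the 44 genes, with a median of 17.5 CG dinucleotides against 6 over 27018 RefSeq windows of the same length, which also include noncoding genes. A GC box was in 58.8% of the 34 windows and in 33% of all windows, the NRF1 motif in 23.5% and 5.11%, the CCAAT box in 44.1% and 34.5%, and the cyclic AMP response element in 2.94% and 1.6%. These matches describe the letters only, and no measure of factor binding is among the data.

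The comparison of inhibitor with control mice asks whether RNA for these chromatin enzymes differed after the treatment and the 5 days of recovery. None of the 44 genes passed the threshold (edgeR quasi-likelihood test, Benjamini-Hochberg adjusted p of 0.05 over all 16658 genes). In all tested genes, 0.06% were called higher and 0.096% lower. The differences were small and mostly of one sign. Of all tested genes 51% were lower, with a median log2 fold change of −0.0041. Of the 44 genes 36 were lower in inhibitor mice, with a median of −0.14. At an unadjusted p of 0.05, 19 genes (43.2%) were lower and 1 (Kdm4a) was higher, where 8.48% of all tested genes were lower and 9.43% higher. Differences of these 19 from the controls ran from −18.5% to −8.2% (log2 fold changes of −0.29 to −0.12, adjusted p from 0.117 to 0.245). Control and inhibitor values did not overlap in 15 genes, all lower in inhibitor mice, against 11.9% of all tested genes in that direction and 11% in the other. Inhibitor mouse 2 held the lowest of the 6 values in 20 of the 44 genes and inhibitor mouse 1 in 11. Without inhibitor mouse 3, 16 of the 44 genes passed, all lower, where 5.54% of all genes tested then were called lower and 8.71% higher. These were Chd3, Chd4, Chd6, Chd8, Ehmt1, Ehmt2, Ezh1, Kdm2a, Kdm3b, Kdm5a, Kdm5b, Kdm5c, Kdm6b, Setd1a, Setd5 and Setdb1 (edgeR adjusted p from 0.006 to 0.0494). Without any one of the other 5 mice none passed. The number lower at the unadjusted threshold was 8 without control 1 (5.88% of all genes), 11 without control 3 (5.96%) and 10 without inhibitor mouse 2 (6.44%).

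**Figure D2:**
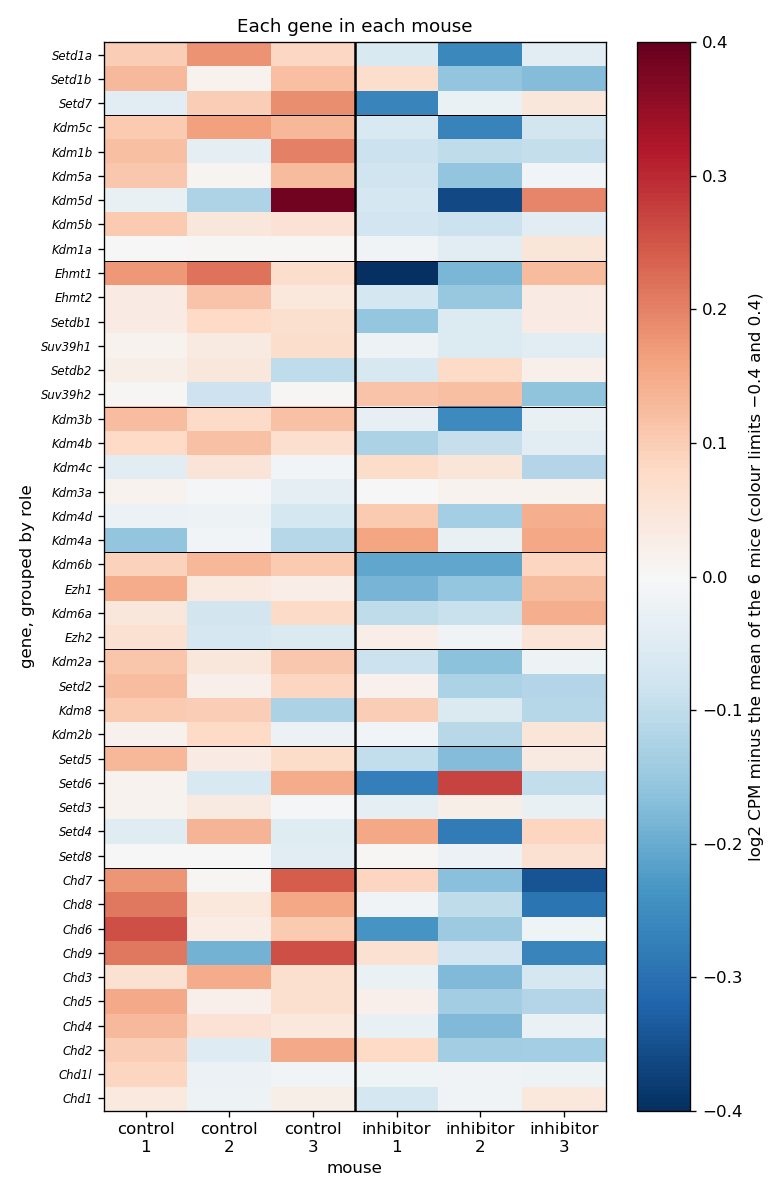
Log2 CPM of each gene in each mouse minus the mean of that gene over the 6 mice (colour), with genes grouped by role and the control mice left of the black line. Most rows are red on the left and blue on the right. In inhibitor mouse 2, 38 of the 44 genes lie below their own mean, in inhibitor mouse 3 only 25.

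The 44 genes have long transcripts, and fold changes followed transcript length over all genes. The median of the longest transcripts was 5944 bases for the 44 genes and 3165 bases for all tested genes, and 33 of the 44 lay above that median. When all tested genes were divided by length into 4 classes of nearly equal size, the median log2 fold change went from 0.08 in the shortest class (up to 1987 bases) through 0.02 and −0.02 to −0.08 in the longest (from 4638 bases). Of the 44 genes, 28 were in the longest class, and 26 of these were lower, 17 of them (60.7%) at the unadjusted threshold, against 18.6% of all genes of that class. Their median was −0.16, against −0.08 for all genes of that class, most of which were thus lower too. Among the other 16 genes 10 were lower and 2 passed the unadjusted threshold, with a median of −0.02. Both were among the 5 in the class from 3165 to 4638 bases, where 8.35% of all genes were lower at that threshold, against 2.23% and 4.88% in the shorter classes. In each mouse the 44 genes deviated in the same direction as the longest class, which holds 28 of them. The median deviation of the 44 from the mean of the 6 mice was 0.08, 0.03 and 0.07 in controls and −0.03, −0.11 and −0.02 in inhibitor mice on the log2 scale. That of the longest class was 0.05, 0.03 and 0.03, then −0.03, −0.07 and −0.0044. The shortest class was at −0.05, −0.05 and −0.02, then 0.07, 0.09 and −0.03, so there inhibitor mouse 3 had the sign of the controls.

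With the trend of each library on transcript length and GC content removed, the median log2 fold change of the 44 genes was −0.04 (all tested genes −0.0016). Then 33 were lower, as were 50.5% of all tested genes. None passed the adjusted threshold (0.012% of all genes higher and 0.024% lower). At the unadjusted one 1 gene (Kdm5c) was lower and 1 (Kdm4a) higher, against 5.93% and 7.31% of all tested genes. All 19 genes that had been lower at that threshold came closer to 0, and 16 of them kept a negative sign. The values of the groups then did not overlap in 6 genes lower and 2 higher in inhibitor mice, where 9.37% and 9.78% of all genes were so placed. With the trend removed and inhibitor mouse 3 left out, none of the 44 genes was called lower, so none of the 16 named above. Kdm4a alone was called, as higher. Of all genes tested in that fit, 2.24% were called lower and 4.14% higher. By its construction the correction also removes any change that long or GC-rich genes share, so a common shift of long genes and a trend between libraries cannot be told apart.

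**Figure D3:**
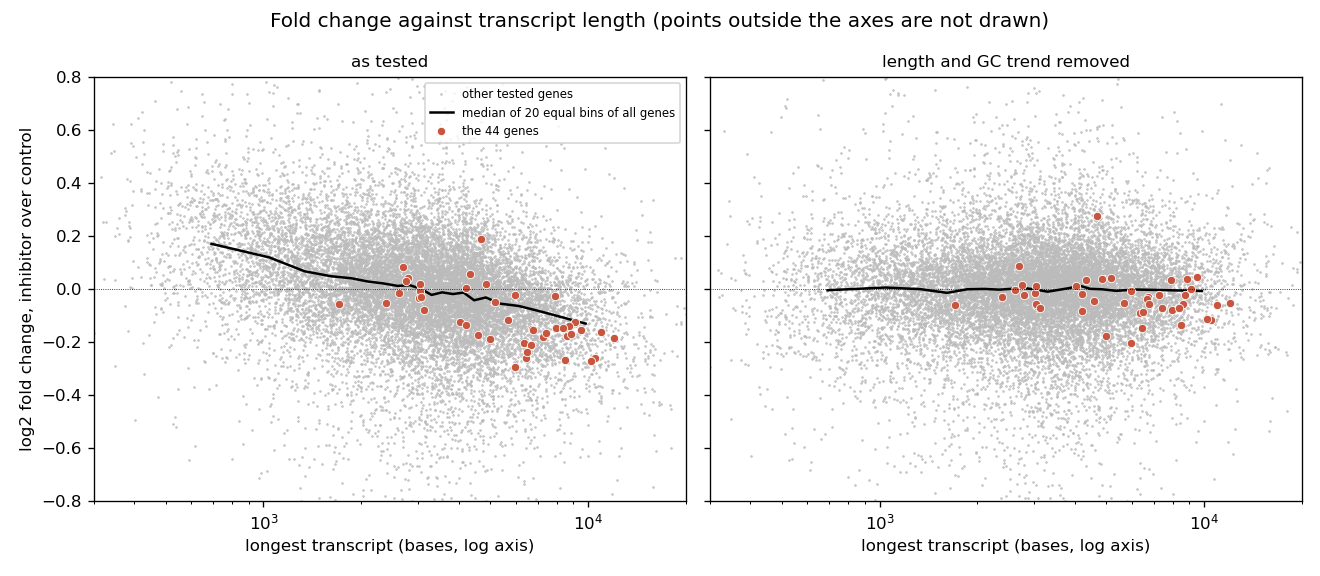
Log2 fold change (inhibitor over control) against the length of the longest transcript (log axis), as tested on the left and with the length and GC trend of each library removed on the right. Grey points are tested genes, the black line is the median of 20 bins with equal numbers of genes, and the large points are the 44 genes. On the left the line slopes downward and most large points lie below 0, on the right both centre near 0.

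Writers of H3K4 methylation among the 44 genes were Setd1a, Setd1b and Setd7. Setd1a and Setd1b encode the catalytic subunits of the SET1/COMPASS complexes, which deposit most H3K4 trimethylation. Setd1a (chromosome 7, 127776670 to 127800122, GRCm38) stood at 60.1, 63.6 and 59.4 CPM in the controls against 53.8, 46.9 and 54.4 CPM after the inhibitor. All 3 inhibitor values lay below all control values (log2 fold change −0.24, SE 0.0673, edgeR adjusted p = 0.117). Setd1b stood at 63.8, 59.0 and 63.4 CPM in the controls against 61.3, 52.3 and 51.7 CPM after the inhibitor, and inhibitor mouse 1 overlapped the controls (log2 fold change −0.17, adjusted p = 0.245). Setd1a and Setd1b, once corrected for the length and GC trend, were at −0.09 and 0.04. Setd7, a monomethyltransferase with many non-histone substrates, was at −0.17 (SE 0.134) with overlapping groups.

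Erasers of H3K4 methylation were lower in all 6 cases, 3 of them at the unadjusted threshold, where 8.48% of all tested genes were lower. The median log2 fold change of the 6 was −0.15. With the trend removed it was −0.07, and Kdm1a was then at 0.01. Kdm5c, an X-linked JmjC demethylase (chromosome X, 152233020 to 152274535), stood at 23.3, 24.2 and 23.7 CPM in the controls against 20.8, 18.0 and 20.6 CPM after the inhibitor. The groups were separate (log2 fold change −0.26, SE 0.0766, edgeR adjusted p = 0.123), and its value with the trend removed was −0.15 (adjusted p = 0.367). The abundant Kdm5b stood at 451, 432 and 436 CPM in the controls against 397, 394 and 406 CPM after the inhibitor, again without overlap. Its difference of −9.3% had a log2 fold change of −0.14 (SE 0.0413, adjusted p = 0.124) and stood at −0.02 with the trend removed. Kdm5a, first known as a partner of the retinoblastoma protein, had 87.7, 81.9 and 88.8 CPM in the controls against 76.9, 72.9 and 80.8 CPM after the inhibitor. The groups were separate here too (log2 fold change −0.16, and −0.06 with the trend removed). The Y-linked Kdm5d rested on 55 to 125 fragments per mouse and was at −0.15 (SE 0.193). Of the amine oxidases, Kdm1a, the LSD1 of the CoREST complex, stood at 171, 171 and 171 CPM in the controls against 169, 165 and 176 CPM after the inhibitor. Its log2 fold change of −0.01 (SE 0.0460) was the smallest of this group. Kdm1b, needed for the maternal imprints of oocytes, was at −0.19 and at −0.18 with the trend removed, with separate groups in both.

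**Figure D4:**
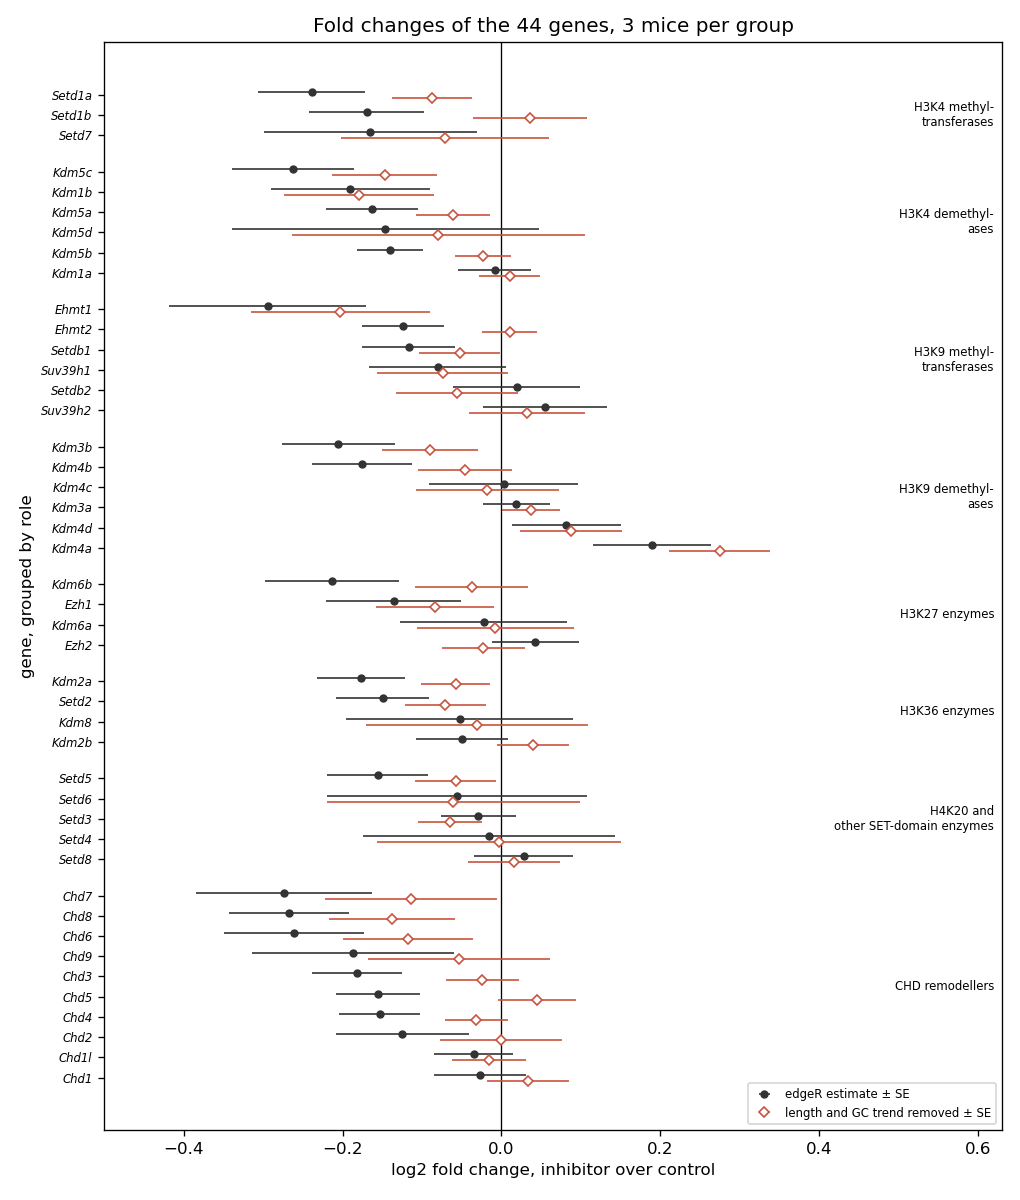
Log2 fold change (inhibitor over control) of each of the 44 genes by role, as the edgeR estimate (filled circles) and with the length and GC trend of each library removed (open diamonds); bars are SE, with 3 mice per group. Most circles lie left of 0, the diamonds lie nearer to 0, and Kdm4a is the gene farthest to the right, at 0.19 and 0.27.

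Writers of H3K9 methylation were divided. Both subunits of the G9a-GLP dimer, which makes H3K9 mono- and dimethylation and is required in meiosis, were lower at the unadjusted threshold. Of all tested genes, 8.48% were lower at it. Ehmt2 stood at 384, 407 and 387 CPM in the controls against 358, 338 and 385 CPM after the inhibitor. Inhibitor mouse 3 overlapped the controls (log2 fold change −0.12, SE 0.0521, adjusted p = 0.240), and with the trend removed the value was 0.01. Without inhibitor mouse 2 Ehmt2 was at −0.08, and without inhibitor mouse 3 at −0.17 (edgeR adjusted p = 0.0144). Ehmt1 stood at 12.9, 13.2 and 11.9 CPM in the controls against 8.59, 10.0 and 12.4 CPM after the inhibitor. It had the lowest estimate of the 44 genes (log2 fold change −0.29, SE 0.124, adjusted p = 0.241), with inhibitor mouse 3 among the controls. Without that mouse Ehmt1 was at −0.45 (edgeR adjusted p = 0.0103), but without inhibitor mouse 1, its lowest value, at −0.17 (edgeR adjusted p = 0.569). Over the 6 mice left out in turn its adjusted p ran from 0.0103 to 0.569. With the trend removed in all mice Ehmt1 was at −0.20 (adjusted p = 0.467). Setdb1, the H3K9 trimethylase that silences retroelements, had 80.0, 82.5 and 81.7 CPM in the controls against 70.2, 75.2 and 80.0 CPM after the inhibitor. Its lowest control and its highest inhibitor value were nearly equal, and it did not reach the unadjusted threshold (log2 fold change −0.12). Without inhibitor mouse 3 Setdb1 was at −0.17 (edgeR adjusted p = 0.0487), and without inhibitor mouse 1 at −0.07 (edgeR adjusted p = 0.667). Suv39h1 had 10.9, 11.1 and 11.4 CPM in the controls against 10.7, 10.4 and 10.5 CPM after the inhibitor, a separate but small difference (−0.08, SE 0.0860). Suv39h2 was at 0.05 (SE 0.0779) and Setdb2 at 0.02 (SE 0.0802), both with overlapping groups.

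Erasers of H3K9 methylation held the one gene that was higher at the unadjusted threshold. Another 2 of these 6 genes, Kdm4b and Kdm3b, were lower at it. Of all tested genes, 9.43% were higher and 8.48% lower. Kdm4a encodes a demethylase of trimethylated H3K9 and H3K36 (chromosome 4, 118136957 to 118180043), and it stood at 26.6, 29.4 and 27.4 CPM in the controls against 33.1, 29.0 and 33.0 CPM after the inhibitor. Inhibitor mice 1 and 3 lay above all controls, and inhibitor mouse 2 lay within their range (log2 fold change 0.19, SE 0.0745, edgeR adjusted p = 0.212). Once the length and GC trend was taken out the groups were separate and the log2 fold change was 0.27 (SE 0.0636, edgeR adjusted p = 0.136), still short of the threshold. In that corrected fit it passed when inhibitor mouse 3 was left out (0.27, edgeR adjusted p = 0.0267, with 4.14% of all genes then called higher) and not when any other mouse was (adjusted p from 0.195 to 0.442). Its relative Kdm4b, with the same substrates, stood at 31.2, 32.01 and 31.0 CPM in the controls against 27.1, 27.7 and 28.6 CPM after the inhibitor. Here all inhibitor values were below the controls (log2 fold change −0.18, adjusted p = 0.179, and −0.05 with the trend removed). Kdm3b, which acts on mono- and dimethylated H3K9, had 42.2, 40.8 and 42.0 CPM in the controls against 37.8, 32.4 and 37.9 CPM after the inhibitor, also separate (log2 fold change −0.21, and −0.09 with the trend removed). Without inhibitor mouse 2 Kdm3b was at −0.14, and without inhibitor mouse 3 at −0.24 (edgeR adjusted p = 0.0329). Kdm3a, the abundant relative active in spermatids, stood at 238, 234 and 229.6 CPM in the controls against 235, 237 and 237 CPM after the inhibitor. Its log2 fold change of 0.02 (SE 0.0423) lay within the spread of the mice. Kdm4d stood at 111, 111 and 108 CPM in the controls against 121, 103 and 125 CPM after the inhibitor. Inhibitor mice 1 and 3 were the highest and inhibitor mouse 2 the lowest of all 6 (0.08, SE 0.0688). Kdm4c was at 0.0029 (SE 0.0935).

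**Figure D5:**
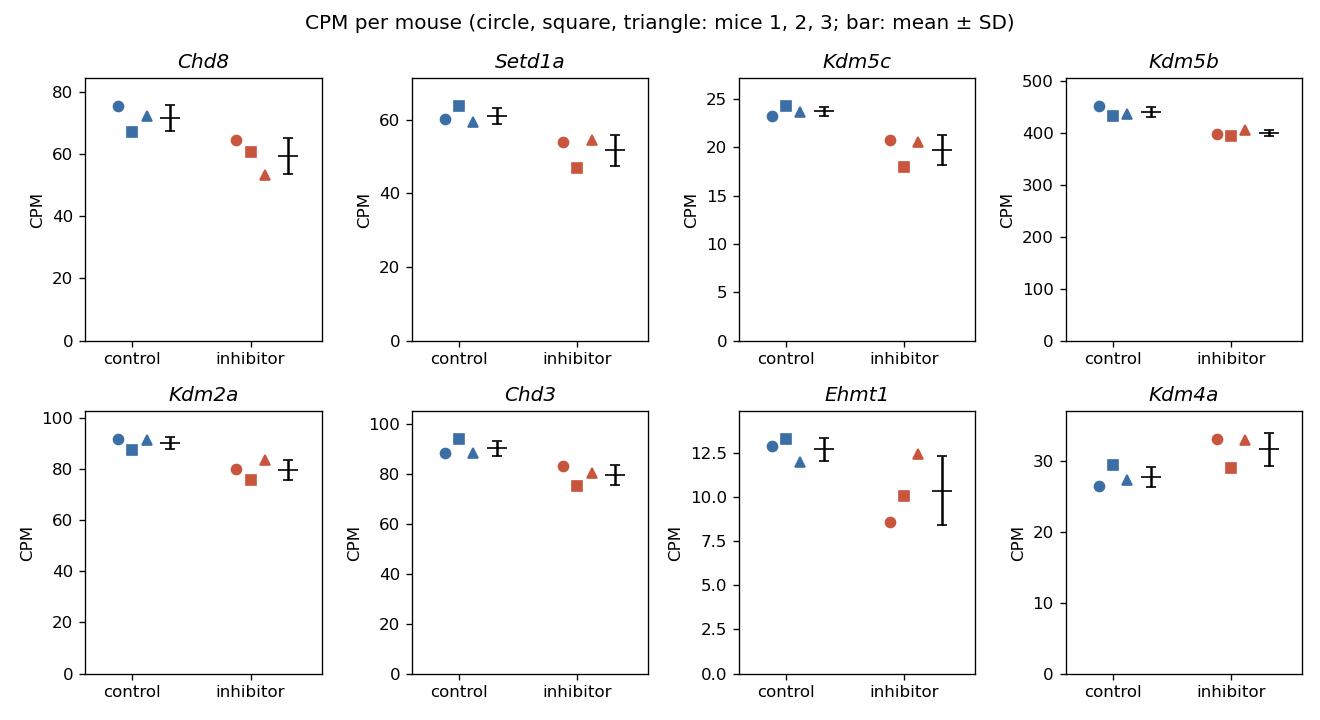
CPM in each mouse for 8 of the 44 genes, with axes from 0; circles, squares and triangles are mice 1, 2 and 3, and bars are mean ± SD (n = 3 per group). In Chd8, Setd1a, Kdm5c, Kdm5b, Kdm2a and Chd3 all inhibitor mice lie below all controls, in Ehmt1 inhibitor mouse 3 lies among the controls, and in Kdm4a inhibitor mice 1 and 3 lie above them.

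Among the 4 enzymes of H3K27, 1 was lower at the unadjusted threshold, where 8.48% of all tested genes were lower. This gene, Kdm6b, encodes an inducible H3K27 demethylase and stood at 28.3, 29.1 and 28.5 CPM in the controls against 22.9, 22.96 and 28.1 CPM after the inhibitor. Inhibitor mouse 3 lay just under the lowest control while the other inhibitor mice were clearly lower (log2 fold change −0.21, SE 0.0843, adjusted p = 0.214). Without that mouse the log2 fold change of Kdm6b was −0.32 (edgeR adjusted p = 0.006), and with the trend removed in all mice it was −0.04. Ezh1 stood at 36.8, 34.2 and 33.8 CPM in the controls against 29.2, 29.8 and 36.2 CPM after the inhibitor. Inhibitor mice 1 and 2 were below all controls and inhibitor mouse 3 was among them (log2 fold change −0.14). Without inhibitor mouse 3 Ezh1 was at −0.24 (edgeR adjusted p = 0.0252), and without inhibitor mouse 1 at −0.08 (edgeR adjusted p = 0.770). Ezh2 stood at 85.6, 78.4 and 78.9 CPM in the controls against 83.7, 81.3 and 85.0 CPM after the inhibitor, a difference within the spread (0.04, SE 0.0551). The X-linked Kdm6a was at −0.02 (SE 0.105).

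Among the 4 enzymes of H3K36, Kdm2a and Setd2 were lower at the unadjusted threshold, where 8.48% of all tested genes were lower. Setd2 is the only known enzyme that makes trimethylated H3K36 over transcribed genes in most cells, and it is required for the completion of spermiogenesis. It stood at 85.2, 79.4 and 83.0 CPM in the controls against 79.2, 71.6 and 72.2 CPM after the inhibitor, with inhibitor mouse 1 just under the lowest control (log2 fold change −0.15, adjusted p = 0.209). Kdm2a, a demethylase that binds CpG islands, stood at 91.5, 87.4 and 91.3 CPM in the controls against 79.8, 75.6 and 83.4 CPM after the inhibitor. Its groups were separate (log2 fold change −0.18, adjusted p = 0.136), and the 2 genes were at −0.07 and −0.06 with the trend removed. Kdm2b, its relative and a subunit of a variant Polycomb complex, had 83.4, 87.2 and 81.2 CPM in the controls against 81.8, 76.3 and 85.2 CPM after the inhibitor and overlapping groups (−0.05). Kdm8, a JmjC protein, was at −0.05 (SE 0.143).

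Of the 5 remaining SET-domain genes, Setd5 was lower at the unadjusted threshold, where 8.48% of all tested genes were lower. It encodes a chromatin protein mutated in intellectual disability and stood at 78.8, 73.5 and 75.7 CPM in the controls against 67.1, 63.7 and 73.7 CPM after the inhibitor. Inhibitor mouse 3 overlapped the controls by a small margin (log2 fold change −0.16, SE 0.0633, adjusted p = 0.224, and −0.06 with the trend removed). Setd3 stood at 131, 133 and 129 CPM in the controls against 126, 132 and 127 CPM after the inhibitor, within the spread (−0.03, SE 0.0470). Setd8, the enzyme of H4K20 monomethylation now named Kmt5a, was at 0.03 (SE 0.0627). Setd6 and Setd4, at −0.06 and −0.02, had SE values of 0.163 and 0.159, so that changes of the size seen in the other genes could not be resolved in them.

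All 10 CHD remodellers were lower in inhibitor mice, 6 of them at the unadjusted threshold and 4 without overlap of the groups. Of all tested genes, 8.48% were lower at that threshold and 11.9% were lower without overlap. The median log2 fold change of the 10 was −0.17. With the trend removed it was −0.03, and Chd1 (0.03) and Chd5 (0.04) were then positive. Chd8, a member of the third subfamily that binds active promoters (chromosome 14, 52198151 to 52257780), had the smallest p of the 44 genes. It stood at 75.3, 66.9 and 72.3 CPM in the controls against 64.4, 60.6 and 53.1 CPM after the inhibitor. All inhibitor values were below the controls, inhibitor mouse 3 lowest (log2 fold change −0.27, SE 0.0750, edgeR adjusted p = 0.117), and with the trend removed the value was −0.14 (adjusted p = 0.485). DESeq2 called Chd8 lower (log2 fold change −0.26, adjusted p = 0.0431), the only one of the 44 genes it called, where it called 1.45% of the genes with an adjusted p lower and 3.2% higher. Chd7, the gene mutated in CHARGE syndrome, stood at 18.5, 16.4 and 19.3 CPM in the controls against 17.3, 14.5 and 12.8 CPM after the inhibitor. Here inhibitor mouse 1 overlapped the controls (log2 fold change −0.27, SE 0.111), and without inhibitor mouse 3 Chd7 was at −0.17. Chd6 of the same subfamily had 21.9, 18.7 and 19.7 CPM in the controls against 15.5, 16.5 and 18.1 CPM after the inhibitor, without overlap (−0.26, and −0.12 with the trend removed).

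The NuRD motor subunits Chd3, Chd4 and Chd5 differed from the controls by −11.8%, −10.1% and −10.2%. Chd4, the broadly expressed form, stood at 366, 348 and 344 CPM in the controls against 328, 296 and 328 CPM after the inhibitor, without overlap (log2 fold change −0.15, adjusted p = 0.154). Chd3 stood at 88.3, 93.8 and 88.5 CPM in the controls against 83.1, 74.9 and 80.5 CPM after the inhibitor, also separate (−0.18, adjusted p = 0.136). Chd5, the form of neurons and testis that is required for histone removal in spermatids, had 589, 537 and 554 CPM in the controls against 538, 482 and 489 CPM after the inhibitor. Control 2 and inhibitor mouse 1 met at nearly the same value (−0.16, adjusted p = 0.160). With the trend removed Chd3, Chd4 and Chd5 were at −0.02, −0.03 and 0.04. The other CHD genes, Chd1, Chd1l, Chd2 and Chd9, ranged from −0.19 to −0.03 and overlapped between groups. Chd9 had an SE of 0.127 and Chd1 one of 0.0581.

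Other genes of the same pathways, taken from 9 lists of partners and related enzymes, were also more often lower. Of 91 tested, 70 were lower and 21 higher, none passed the threshold, and 23 were lower and 3 higher at the unadjusted one, with a median log2 fold change of −0.07 (−0.06 with the trend removed). Of all tested genes 51% were lower, 8.48% at the unadjusted threshold, and 9.43% were higher at it. Among partners of the COMPASS complexes, Hcfc1, a cofactor that recruits SET1 enzymes, stood at 45.7 ± 1.76 CPM in the controls against 35.9 ± 1.45 CPM (SD, 3 mice per group). Its log2 fold change of −0.34 had the smallest p of the 9 lists (edgeR adjusted p = 0.0583), and it was −0.19 with the trend removed. Men1 (menin), in the same list of 12 genes, was at −0.24. Of the 9 PRC2 partners, 6 were lower, with Jarid2 at −0.24 and the histone chaperone gene Rbbp4 higher at 0.14. Wiz, a zinc finger partner of G9a and GLP, was at −0.28 (edgeR adjusted p = 0.0844) in a list of 7 H3K9 partners of which 3 were lower. Partners of LSD1 were lower in 5 of 7 cases, with the corepressor gene Rcor2 at −0.51 (edgeR adjusted p = 0.128) and Gse1 at −0.25. NuRD partners were lower in 7 of 9 cases, with Mta1 at −0.17 and Gatad2b at −0.20. All 11 other ATP-dependent remodellers were lower, with Smarca4 at −0.14 and Ercc6 at −0.21. Other lysine methyltransferases were lower in 13 of 16 cases (Nsd1 −0.23, Smyd5 −0.29) and other JmjC proteins in 10 of 12 (Phf8 −0.19, Jmjd1c −0.16). Of these, Smarca4 was at −0.0031 and Nsd1 at −0.07 with the trend removed, and Smyd5 remained at −0.29. Men1 was then at −0.17, Jarid2 at −0.12, Wiz at −0.13, Gse1 at −0.08, Mta1 at −0.10 and Gatad2b at −0.12. Ercc6 was at −0.11, Phf8 at −0.10, Jmjd1c at −0.08, Rcor2 at −0.40 and Rbbp4 at 0.15. With the trend removed the smallest p of the 9 lists were those of Phf2 and Whsc1l1, both higher at 0.21 (edgeR adjusted p = 0.145 and 0.166). The median of the 91 genes was −0.06, as given above. The median of the 11 other remodellers was then −0.04 (−0.12 uncorrected), with Smarca2, Ep400 and Btaf1 positive. The 5 MLL genes, added after the data were seen, were all lower, 4 of them at the unadjusted threshold. These 4 were in the longest class of transcripts, where 18.6% of all genes were lower at it. Mll1 was at −0.43, Mll2 at −0.42, Mll3 at −0.39, Mll5 at −0.19 and Wbp7 at −0.16, and none passed (edgeR adjusted p from 0.123 to 0.429). With the trend removed Mll1, Mll3 and Mll5 were at −0.22, −0.21 and −0.12 and Wbp7 at 0.04. None of these was then past the unadjusted threshold (edgeR unadjusted p from 0.0504 to 0.525). No transcript length was matched for Mll2, whose value was not corrected.

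The cell types of the testis were represented in every library, and some of their markers differed between the groups. The summed CPM of 13 markers of undifferentiated spermatogonia was 109 to 111 in controls and 79.8 to 95.03 in inhibitor mice, and 4 of them (Ret, Sox3, Zbtb16 and Lin28a) fell past the threshold. Of all tested genes, 0.096% were called lower. Markers of spermatocytes summed to 7229 to 7479 CPM in controls and 7785 to 7891 CPM in inhibitor mice, and those of elongating spermatids to 16532 to 17326 and 17880 to 19603 CPM. The largest spermatocyte marker, Ldhc, stood at 3576 ± 78.0 CPM in the controls against 3920 ± 87.3 CPM (SD, 3 mice per group). Its log2 fold change of 0.13 was 0.01 with the trend removed. Macrophage markers summed to 351 to 358 and 393 to 429 CPM. Most of that sum was 1 gene, Aif1, at 319.5 ± 0.968 CPM in the controls against 368 ± 20.6 CPM (SD, 3 mice per group), and 4 of the 6 markers were lower. Lymphocyte markers, of which Cd3e, Cd4 and Ms4a1 had control means of 0.683, 0.723 and 0.309 CPM, summed to 5.29 to 5.69 and 6.64 to 7.09 CPM. Those of differentiating spermatogonia summed to 627 to 635 and 640.4 to 669.7 CPM, and 1 of these 8 (Ccnd2) fell past the threshold. Most of that sum was Dmrtb1, at 518 ± 5.17 CPM in the controls against 558 ± 19.6 CPM (SD, 3 mice per group). It was the only 1 of the 8 that was higher. Single markers were lower in 12 of 13 cases for undifferentiated and 7 of 8 for differentiating spermatogonia. They were higher in 8 of 10 for spermatocytes, 7 of 8 for elongating spermatids, 2 of 6 for macrophages and 4 of 5 for lymphocytes, and none of these was at 0 in all mice. With the length and GC trend removed the median log2 fold change of spermatocyte markers turned from 0.11 to −0.02, and that of elongating spermatid markers was 0.04 in place of 0.17. Those of undifferentiated and differentiating spermatogonia were −0.45 and −0.26 (−0.50 and −0.21 uncorrected), that of lymphocytes 0.13 (0.22) and that of macrophages −0.015 (−0.05). Of the markers called, Ret alone still passed with the trend removed (edgeR adjusted p = 0.0219, with 0.024% of all genes called lower). Sox3, Zbtb16, Lin28a and Ccnd2 then had edgeR adjusted p values from 0.0549 to 0.0647. Sums for Sertoli, Leydig, peritubular, endothelial and erythroid cells, epididymis and round spermatids overlapped between the groups. The part of these differences in the values of the 44 genes was not tested. Exons of 17 of the 44 genes overlap a gene annotated on the opposite strand in GENCODE M21, among them Kdm5a, Kdm6b, Chd5, Chd8 and Setd1a. Exons of 5 (Chd2, Chd4, Ehmt1, Kdm2b and Setd1a) overlap another gene on the same strand, whose fragments cannot be told apart by strand. The libraries were made with a directional kit, but the strand setting of the counting was not given in the sources used here. For the 17 genes fragments of the partner may be included.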

How the data were processed

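RNA-seq libraries (polyA-selected, directional kit, per the labels' protocols) were made from the testes of 6 mice. Cutadapt 1.8, TopHat2 2.0.13 and Cuffdiff 2.2.1 on mm10 are named in the submitters' processing notes, without roles, while annotation and strand setting were not given in the sources used here. The deposited table holds, per the file headers, unscaled fragments per gene and library, treated here like expected counts, and FPKM as the authors' software scaled them. Of 140166 count values 98.8% were whole (tolerance 1e-06), and all were rounded. Another 2 columns of scaled values per sample were not used.

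Counts of all 23361 genes entered edgeR 4.0.16 (R 4.3.3; TMM, filterByExpr, robust quasi-likelihood F test, two-sided, Benjamini-Hochberg adjustment over 16658 tested genes, threshold 0.05). CPM use TMM library sizes, and the deviations from a gene's own mean use log2 CPM with a prior count of 2. Limma 3.58.1 on log2(FPKM + 1) and log2(FPKM + 0.1), computed from the deposited FPKM, and DESeq2 1.42.0 were alternatives. The length and GC correction subtracts a loess trend (span 0.5) of each library's log2 CPM deviation from the mean of the libraries, fitted on genes with a mean log2 CPM above 1, with GENCODE M21 transcripts (99% of tested genes matched). Standard errors are the log2 fold change over the square root of F. Scripts were tested on simulated data. Depth is 23144295 to 43127892 fragments per library.

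Members, lists and named genes were chosen with earlier results of these data known. Values per mouse are given for genes at an unadjusted p of 0.05 and, in each role, for the gene with the smallest p and the most abundant one, and up to 2 related genes per list are named. Several other genes are given for the paralogue pairs, to complete a role or, among related genes, for their values with the trend removed. The promoter windows, motifs, FPKM classes, length classes and MLL list were chosen after the data were seen.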

Additional observations from a re-analysis of the deposited data

How the results depend on the processing

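The median of the 44 genes was negative under every alternative. DESeq2 called 1 gene (Chd8). At the unadjusted threshold 10 genes were lower and 0 higher in both limma fits, where 7.08% and 7.05% of all genes were lower and 9.62% and 9.6% higher. With library totals alone 21 were lower and 0 higher, against 12.2% and 6.48% of all genes. Replicate numbers did not pair the mice (correlations of same-numbered deviations of 0.062, −0.116 and −0.02). A replicate block left 18 genes lower and 0 higher (7.09% and 7.82% of all genes). With the length and GC trend taken out, 1 gene was lower and the median was −0.0415, and with the replicate block added 0 were lower (5.06% of all genes) and it was −0.0427. When each mouse was left out in turn, 0 to 16 genes were called, 8 to 19 were lower and 0 to 2 higher (5.64% to 13.4% and 5.81% to 15.2% of all genes), and the median ran from −0.150 to −0.108. All 16 calls came without inhibitor mouse 3. The same with the trend taken out, added after the data were seen, gave 0 to 1 calls, 0 to 2 lower, 1 to 3 higher (3.89% to 10.1% and 4.9% to 11.4% of all genes) and a median of −0.0495 to −0.0317.

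Of the 30 genes followed singly, these changed sign somewhere. With library totals alone Kdm3a was at −0.0121 and Setdb2 at −0.0119. With the trend taken out, Chd5, Ehmt2, Ezh2, Kdm2b, Setd1b and Setdb2 were at 0.0449, 0.0102, −0.0226, 0.0394, 0.0361 and −0.0558, and with the replicate block added at 0.0444, 0.0100, −0.0240, 0.0392, 0.0323 and −0.0519. Leaving out each mouse gave Setdb2 −0.0156 to 0.0570 (negative without control 3 or inhibitor mouse 2) and Kdm5d −0.296 to 0.0352 (positive without control 3), and kept the sign of Chd7 (−0.399 to −0.173), Kdm6b (−0.320 to −0.161), Setd1b (−0.253 to −0.124), Chd5 (−0.206 to −0.118), Ehmt2 (−0.173 to −0.0807), Kdm2b (−0.0869 to −0.00830), Ezh2 (0.0222 to 0.0838) and Suv39h2 (0.00750 to 0.143). With the trend also taken out, the ranges were 0.00630 to 0.0901 for Chd5, −0.00750 to 0.0202 for Ehmt2, 0.0238 to 0.0598 for Kdm2b, −0.0249 to 0.108 for Setd1b, −0.0521 to 0.0130 for Ezh2, −0.108 to 0.0242 for Kdm6b, −0.0195 to 0.119 for Suv39h2, −0.221 to 0.00450 for Chd7, −0.105 to −0.0105 for Setdb2 and −0.218 to 0.0853 for Kdm5d. The cause was not tested. Depth limits the genes of few fragments, such as Kdm5d.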

Other observations

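Arginine methyltransferases, which methylate histone H3 and H4 arginines and many RNA-binding proteins, were lower in 7 of 8 tested genes, 4 of them at the unadjusted threshold (8.48% of all tested genes), with a median log2 fold change of −0.23 (−0.19 with the length and GC trend removed). None passed the threshold. Carm1, a coactivator enzyme, stood at 91.4 ± 3.28 CPM in the controls against 76.4 ± 3.81 CPM after the inhibitor (SD, 3 mice per group). Its log2 fold change was −0.26 (edgeR adjusted p = 0.0826), and −0.17 with the trend removed. Prmt1, the main enzyme of asymmetric dimethylation, was at −0.22 (edgeR adjusted p = 0.131) and at −0.21 with the trend removed. Prmt5, which makes symmetric dimethylarginine and is required in germ cells, was at −0.24 and −0.22. Its partner Wdr77 was at −0.04, and Prmt7 at 0.02. Prmt5, Wdr77 and Prmt7 were chosen after their values were seen.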
